A study of Mus musculus with 16 samples.

Results

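Mitochondrially encoded RNA fragments were examined in small RNA libraries of mouse mesenchymal stem cells with and without the nuclease Dicer. A read counted as such a fragment when, after removal of the 3′ adapter, it was 15 nt or longer, matched a mitochondrial gene in the sense direction without a mismatch and matched no miRNA hairpin. The annotation holds 37 mitochondrial genes, namely 22 tRNAs, 2 rRNAs and 13 protein genes, beside 6088 genes of short non-coding classes (6125 in all). All 37 genes had reads, in 13260 distinct sequences.

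The study sequenced small RNA cut from a gel at 15 to 50 nt, from cells of C57BL/6 background, in 16 libraries of 8 groups with 2 replicates each. Wild type cells were Dicer f/f (floxed alleles, Dicer present) and knockout cells were Dicer -/-, and both carried the red fluorescent protein mCherry. The other 6 groups were Dicer -/- cells given human Dicer (hsDicer) or hsDicer with point mutations: D1320A in the RNase IIIA domain, D1709A in the RNase IIIB domain, both of these together, K70A in the helicase domain, or Y971A/Y972A in the PAZ domain. Thus 7 comparisons are implied: knockout against wild type, hsDicer against knockout, and each mutant against hsDicer. The 5 mutant comparisons share the hsDicer libraries. The rescue groups are models of a human protein in mouse cells, and the labels give neither its expression level nor the number of clones. Nothing in the labels says that replicates were separate cultures, so p-values measure only the spread between these libraries, which may be technical.

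Mitochondrial DNA is a small circle that is transcribed from both strands into long precursors. In these precursors the tRNAs lie between the rRNAs and mRNAs, and cuts at the 5′ end of a tRNA by RNase P and at its 3′ end by RNase Z free the neighbouring RNAs. A nucleotidyltransferase then adds CCA, which is not encoded in vertebrate tRNA genes, to the tRNA's 3′ end. Dicer is known for cutting miRNA precursors and double-stranded RNA in the cytoplasm. In bulk RNA a share of reads can differ because these fragments or the other small RNAs differ in amount, and the counts do not tell these apart.

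The fragments the results turn on are shown from the GENCODE mouse annotation (release M21, GRCm38), 5′ to 3′ on the gene's own strand and written with T. Capitals mark the fragment and lower case the rest of the gene or its flanks inside the gene. The first is the most abundant distinct mitochondrial read, the first 21 nt of mt-Ts1, a serine tRNA (chrM:6870-6938, minus strand).
mt-Ts1: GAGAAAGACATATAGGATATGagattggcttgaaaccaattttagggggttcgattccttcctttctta
mt-Ts2, the other serine tRNA (chrM:11613-11671, plus strand), gave reads from its first base to the end of the read.
mt-Ts2: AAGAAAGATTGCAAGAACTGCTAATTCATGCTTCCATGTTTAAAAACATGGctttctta
The methionine tRNA mt-Tm (chrM:3845-3913, plus strand) gave reads of the same kind, here in the 41 nt form.
mt-Tm: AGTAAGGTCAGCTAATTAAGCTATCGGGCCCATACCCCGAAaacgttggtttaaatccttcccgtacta
The phenylalanine tRNA mt-Tf (chrM:1-68, plus strand) is shown for its single end at position 42.
mt-Tf: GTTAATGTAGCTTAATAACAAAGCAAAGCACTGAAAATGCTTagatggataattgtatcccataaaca
The 16S rRNA mt-Rnr2 (chrM:1094-2675, plus strand) is shown with its first 24 nt in capitals.
mt-Rnr2: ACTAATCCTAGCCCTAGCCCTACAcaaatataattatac
A fragment from inside mt-Rnr2 (positions 453 to 473) is shown since it was abundant in only a pair of libraries.
mt-Rnr2, internal: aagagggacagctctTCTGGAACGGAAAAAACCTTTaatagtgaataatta

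The libraries held 10877381 to 21768558 reads each, and 10331036 to 20502254 inserts of 15 nt or more, of which 56647 to 309775 were mitochondrial. The sequenced length was 41 nt for replicate 1 and 51 nt for replicate 2, so that inserts were seen whole only up to 36 and 46 nt. In 6 replicate 1 libraries (wild type, knockout, hsDicer, D1320A/D1709A, K70A and Y971A/Y972A) 99% of the mitochondrial reads fell on only 15 to 85 distinct sequences, against 434 to 2473 in the other 10. Only 13 to 23 of the 37 genes had 3 or more reads in those 6, against 36 to 37 in the 10. Values are therefore given with and without these 6 libraries, called here the libraries of few distinct reads. Of the 13260 distinct sequences 9552 (72.0%) occurred in 1 library, and 4 occurred in all 16. Reads that also match a nuclear transcript made up 0.0173% to 14.0% of the mitochondrial reads per library. The highest value was in Y971A/Y972A replicate 2, where mRNAs took 22.5% of mitochondrial reads, their highest share in the 10 libraries. With such reads left out, only 34 of the 37 genes kept enough reads for the gene tests below. Their share of each gene's reads is not given here. Dicer1 transcripts were not counted here. Reads of miRNA hairpins made up 47.8% and 38.2% of inserts in wild type and 3.50% and 2.45% in knockout. The 4 mesenchymal miRNAs checked (miR-143, miR-145, miR-199a, miR-214) summed to 11098 and 11737 CPM (counts per 1000000 inserts) in wild type. Neuronal miRNAs (miR-124, miR-9) summed to 0 and 57.1 CPM there, muscle miRNAs (miR-1, miR-133a, miR-206) to 0.231 and 113 CPM (miR-206 alone reached 953 CPM in another library), blood miRNAs to 0 and 0.780 CPM, and those of epithelium, liver and pluripotent cells were at 0.

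The share of inserts that was mitochondrial was lowest in wild type and highest in cells with no Dicer or with both catalytic residues changed. It was 0.327% and 0.640% in wild type replicates 1 and 2, and 1.67% and 1.49% in knockout. The hsDicer replicates had 1.06% and 1.05%. Both wild type libraries lay below both knockout libraries, and both hsDicer libraries lay between these groups. Among the nuclease mutants D1320A had 1.59% and 1.29%, D1709A had 1.65% and 0.809%, and D1320A/D1709A had 1.575% and 1.63%. The helicase mutant K70A had 1.07% and 0.860%, and the PAZ mutant Y971A/Y972A had 1.02% and 1.13%. D1320A and D1320A/D1709A lay above both hsDicer libraries, whereas D1709A, K70A and Y971A/Y972A overlapped them. By mean ± SD (n = 2) the order ran from wild type (0.484% ± 0.221) over K70A (0.963% ± 0.147), hsDicer (1.05% ± 0.00781), Y971A/Y972A (1.07% ± 0.0744), D1709A (1.23% ± 0.597), D1320A (1.44% ± 0.214) and knockout (1.58% ± 0.128) to D1320A/D1709A (1.60% ± 0.0390). Of these neighbours wild type and K70A alone did not overlap.

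**Figure D1:**
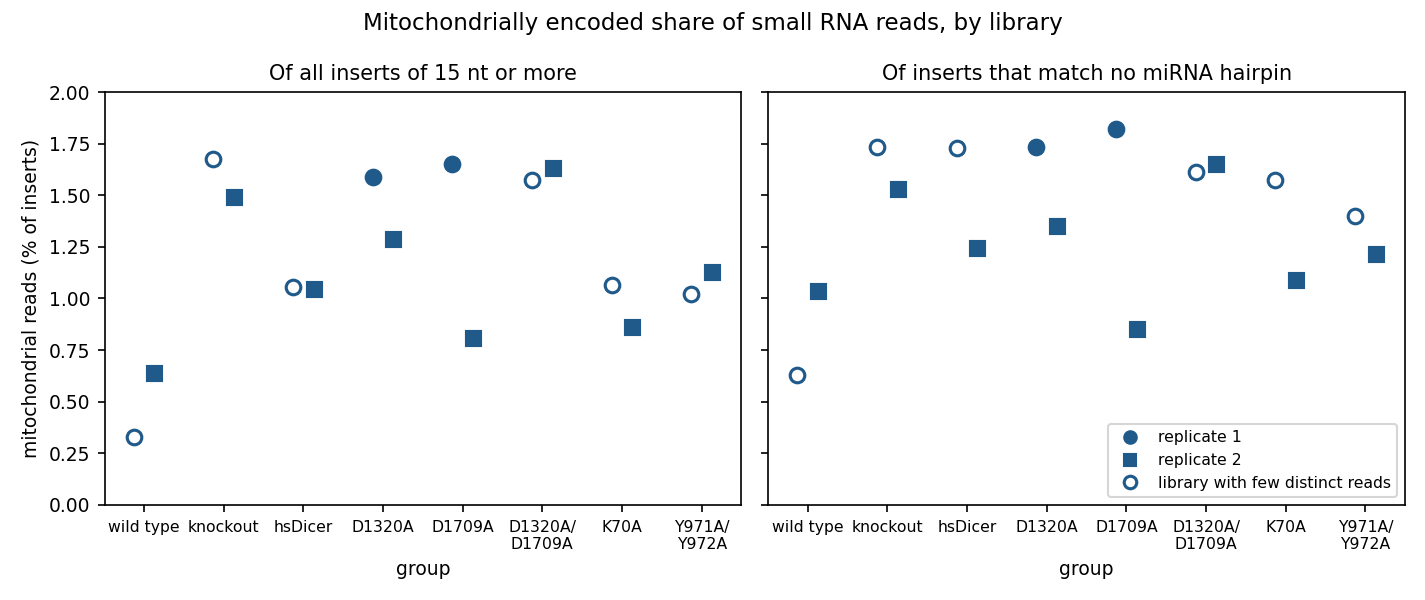
Mitochondrially encoded reads as a percentage of all inserts of 15 nt or more (left) and of inserts that match no miRNA hairpin (right), with 1 point per library by group, circles for replicate 1, squares for replicate 2 and open circles for the 6 libraries of few distinct reads. On the left both wild type libraries, at 0.327% and 0.640%, lie below the libraries of every other group, whereas on the right wild type replicate 2 (1.03%) lies above D1709A replicate 2 (0.851%).

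The knockout mean exceeded the wild type mean 3.27-fold, a difference of 1.10 percentage points. The exact permutation test (2-sided, 2 against 2 libraries) gave p = 0.333, the smallest this design allows, and 0.583 after Benjamini-Hochberg adjustment over the 7 comparisons. The same p = 0.333 was reached in the exact permutation tests of hsDicer against knockout (difference -0.532 points), D1320A against hsDicer (0.387 points) and D1320A/D1709A against hsDicer (0.551 points). For D1709A (0.180 points), K70A (-0.0878 points) and Y971A/Y972A (0.0233 points) the exact p was 1, with groups that overlapped. Hairpin reads moved with these shares: in replicates 1 and 2 they took up 38.8% and 15.9% of inserts for hsDicer, 8.22% and 4.67% for D1320A, 9.34% and 5.02% for D1709A, and 2.22% and 1.40% for D1320A/D1709A. For K70A these were 32.1% and 21.2%, and for Y971A/Y972A 27.1% and 7.29%. Their part in the differences of share was not tested beyond the next values. Taken over inserts other than hairpin reads, the mitochondrial share was 0.628% and 1.03% in wild type and 1.73% and 1.53% in knockout, a ratio of 1.96 with no overlap. On that base hsDicer (1.73% and 1.24%) overlapped knockout, D1320A (1.73% and 1.35%) and D1320A/D1709A (1.61% and 1.65%). Set against reads of small nuclear and nucleolar RNAs, knockout had 21.5 and 6.11 mitochondrial reads per 100 and wild type 11.2 and 6.02. These overlapped across replicates, which differ in this measure in all groups (11.2 to 24.7 in replicate 1 and 5.26 to 10.3 in replicate 2), and within each replicate knockout was the higher. The replicate number goes with the read length, and within each number the share of all inserts was higher in knockout than wild type, lower with hsDicer than in knockout, and higher with D1320A and D1320A/D1709A than with hsDicer. For D1709A, K70A and Y971A/Y972A the 2 replicates differed from hsDicer in opposite directions.

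The rRNAs and tRNAs supplied most of the fragments. In the 10 libraries with more distinct reads, tRNAs made up a median 47.2% of mitochondrial reads (23.9% to 58.3%), rRNAs 41.5% (30.6% to 54.8%) and mRNAs 11.4% (10.01% to 22.5%). Over all 16 libraries the medians were 39.1%, 44.9% and 11.4%, with wider ranges (15.5% to 75.0%, 24.6% to 65.9% and 0.417% to 22.8%). Per kilobase of gene the mean level in the 10 libraries was 3549 CPM for tRNAs, 2064 for rRNAs and 137 for mRNAs. The 8 genes of highest mean CPM over 16 libraries were mt-Rnr2 (4004), mt-Rnr1 (1621), mt-Ts2 (1378), mt-Ts1 (948), mt-Tm (597), mt-Co1 (472), mt-Tp (310) and mt-Co2 (223). The other 29 genes had mean levels of 6.29 to 186 CPM. Over the 10 libraries the first 6 were the same genes in the same order (3524, 1713, 1706, 1068, 725 and 448 CPM), mt-Te (226) and mt-Co2 (199) came next, and mt-Tp, highest in hsDicer replicate 1, had 127.

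mt-Rnr2, the 16S rRNA of the large mitochondrial ribosomal subunit, had the highest level. Its replicates 1 and 2 stood at 803 and 1574 CPM in wild type, 8780 and 2961 in knockout and 3906 and 2234 with hsDicer. In the mutants they stood at 5026 and 3536 CPM (D1320A), 5956 and 2051 (D1709A), 6628 and 5165 (D1320A/D1709A), 3728 and 2386 (K70A), and 4980 and 4353 (Y971A/Y972A). Both wild type libraries were below every other library. mt-Rnr1, the 12S rRNA of the small subunit (chrM:70-1024, plus strand), stood at 1.79 and 494 CPM in wild type, 1019 and 1610 in knockout, and 544 and 999 with hsDicer. In the mutants its levels ran from 1009 to 3102 CPM. Wild type replicate 1 is a library of few distinct reads, in which 24 of the 37 genes had fewer than 3 reads.

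mt-Ts2 stood at 450 and 1591 CPM in wild type, 2235 and 3890 in knockout, and 213 and 2452 with hsDicer. In the mutants it ran from 392 CPM (Y971A/Y972A, replicate 2) to 2826 CPM (D1320A, replicate 1). Both knockout libraries were above both wild type libraries, and hsDicer replicate 1 had the lowest level of the 16. mt-Ts1 stood at 1115 and 379 CPM in wild type, 1015 and 1356 in knockout, 1202 and 1348 with hsDicer, and 7.47 and 2629 with D1320A/D1709A, so that replicates of the last group held its lowest and highest level. mt-Tm stood at 0.289 and 470 CPM in wild type, 1728 and 871 in knockout, and 0.9 and 580 with hsDicer. The proline tRNA mt-Tp (chrM:15356-15422, minus strand) ran from 26.3 CPM (wild type, replicate 2) over a median of 144 to 1637 CPM (hsDicer, replicate 1). mt-Tf had no read in any of the 6 libraries of few distinct reads and 17.7 to 548 CPM in the 10 others.

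Among the mRNAs, mt-Co1 and mt-Co2, which encode subunits of cytochrome c oxidase (complex IV), had the highest levels. mt-Co1 (chrM:5328-6872, plus strand) stood at 12.9 and 254 CPM in wild type and 2.42 and 457 in knockout, and mt-Co2 (chrM:7013-7696, plus strand) at 0.231 and 126 CPM and 1.1 and 195 CPM. For both genes the wild type and knockout libraries overlapped. In the 10 libraries mt-Co1 ran from 232 to 730 CPM and mt-Co2 from 84.3 to 341. The other 11 mRNAs, for subunits of complex I, complex III (mt-Cytb), complex IV and the ATP synthase, had mean levels of 18.9 to 148 CPM. These levels include reads that also match a nuclear transcript, so part of them may not be mitochondrial.

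**Figure D2:**
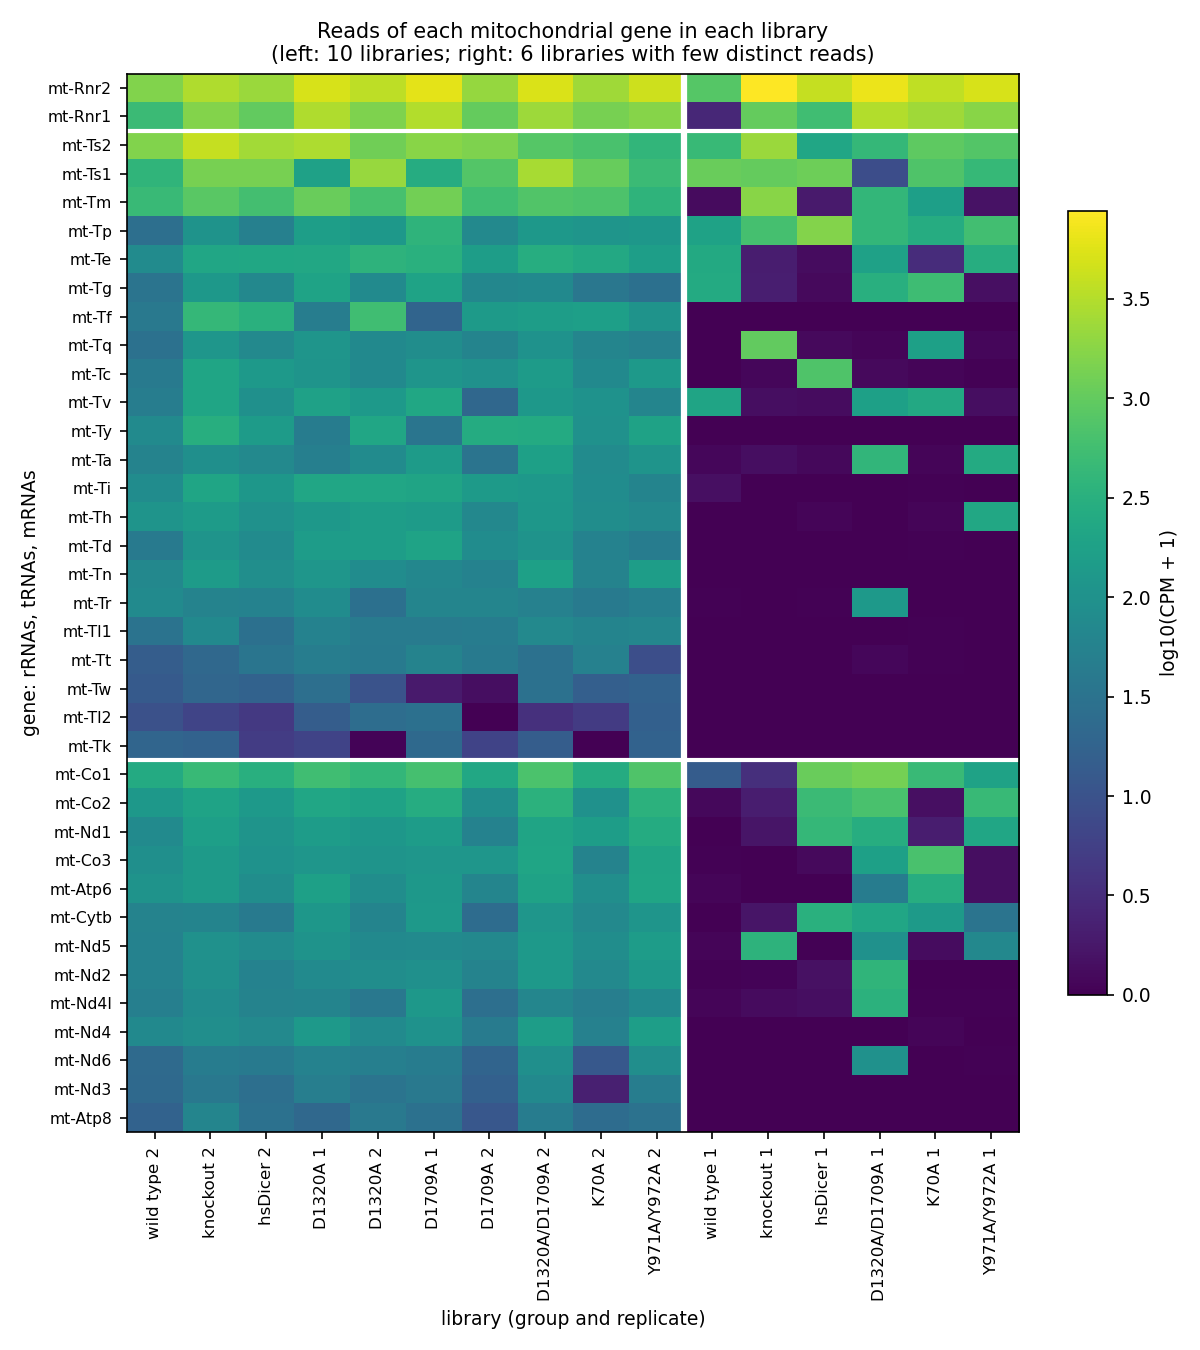
Level of each of the 37 mitochondrial genes (rows, by class) in each of the 16 libraries (columns), with colour for log10(CPM + 1), the 10 libraries with more distinct reads on the left and the 6 others on the right. The 6 replicate 1 libraries of few distinct reads show 14 to 24 genes with fewer than 3 reads, whereas the other 10 have at most 1 such gene.

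tRNA fragments began mainly at the first base of the tRNA. In the 10 libraries a median 71.9% of tRNA reads started within 3 nt of the gene's first base (48.1% to 81.1%), against 34.9% of rRNA reads (16.6% to 38.3%) and 5.19% of mRNA reads (1.93% to 10.001%). Over 16 libraries the medians were 67.8%, 25.2% and 4.53%. The base most used as a start was position 1 in 14 of the 22 tRNAs, in 2 of 2 rRNAs and in 7 of 13 mRNAs over the 10 libraries, and in 13, 2 and 3 over all 16. Counting each distinct sequence once, the tRNA share fell to a median 23.3%, since a few tRNA 5′ sequences carry most of the reads. The tRNA start share was 90.7% and 80.4% in knockout and 63.8% and 73.6% in wild type (exact permutation p = 0.333), and it overlapped in the other 6 comparisons. These shares leave out tRNA reads with added C, CC or CCA. Reads at tRNA 3′ ends, with or without those bases, summed to 5901 and 3166 CPM in knockout and 1345 and 1037 in wild type. Counting these tailed reads lowers the start share by construction, and on that count the groups were not compared. The separation of knockout and wild type in start share is thus given only for reads without added bases.

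Of the mt-Ts1 reads 92.0% were the 21 nt fragment shown above, and of the mt-Ts1 reads that began at position 1, 95.5% ended at 21. The fragment lies at chrM:6918-6938. It stood at 747 and 341 CPM in wild type, 1012 and 1259 in knockout, 1202 and 1245 in hsDicer cells, and 0.972 and 2440 in D1320A/D1709A cells. The D1320A replicates had 124 and 2070 CPM, those of D1709A had 217 and 719, those of K70A 722 and 994, and those of Y971A/Y972A 430 and 433. It was one of the 4 distinct sequences seen in all 16 libraries, including both knockout libraries, though with only 16 reads in D1320A/D1709A replicate 1. Its replicates lay furthest apart in the 2 groups with D1320A. Among all mitochondrial reads of 21 nt it made up 94.8% in knockout replicate 2, 91.4% in hsDicer replicate 2 and 57.6% in wild type replicate 2.

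The mt-Ts2 and mt-Tm fragments were longer. A read of 41 nt in replicate 1, or of 51 nt in replicate 2, reaches the end of sequencing, so its insert was at least that long. The mt-Ts2 read from position 1 to 41 averaged 1031 CPM in the 8 replicate 1 libraries (213 to 2550), and the read from 1 to 51 averaged 1354 CPM in the 8 replicate 2 libraries (243 to 3584). In replicate 2, where a 41 nt read is a whole insert, the 51 nt form stood at 1380 CPM in wild type, 3584 in knockout and 2221 with hsDicer, and the 41 nt form at 7.3, 20.2 and 21.99. The mt-Tm read from 1 to 41 averaged 527 CPM in replicate 1 (0.289 to 1727), and the read from 1 to 51 averaged 235 CPM in replicate 2 (49.5 to 406), where the 41 nt form had 3.41 to 17.4 CPM. mt-Tf differed from these: 94.6% of its reads that began at position 1 ended at position 42, a length seen whole only in replicate 2. There that 42 nt fragment stood at 26.4 CPM in wild type, 385 in knockout, 277 with hsDicer and 504 with D1320A.

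Other tRNAs were represented by their 3′ ends. In the 10 libraries 14 of the 22 tRNAs had more reads that reached the last base, with or without added C, CC or CCA, than reads that began at position 1, and 8 had fewer. mt-Ts2, mt-Ts1 and mt-Tm had 1556, 1012 and 659 CPM at the 5′ end and 30.1, 11.5 and 25.6 CPM at the 3′ end. The glutamate tRNA mt-Te had 27.6 and 445 CPM, the valine tRNA mt-Tv 23.2 and 219, the histidine tRNA mt-Th 0 and 258, and mt-Tp 2.67 and 159. Reads of a leucine tRNA, mt-Tl2, from position 1 were at 0, and its first base overlaps the last base of mt-Ts2.

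**Figure D3:**
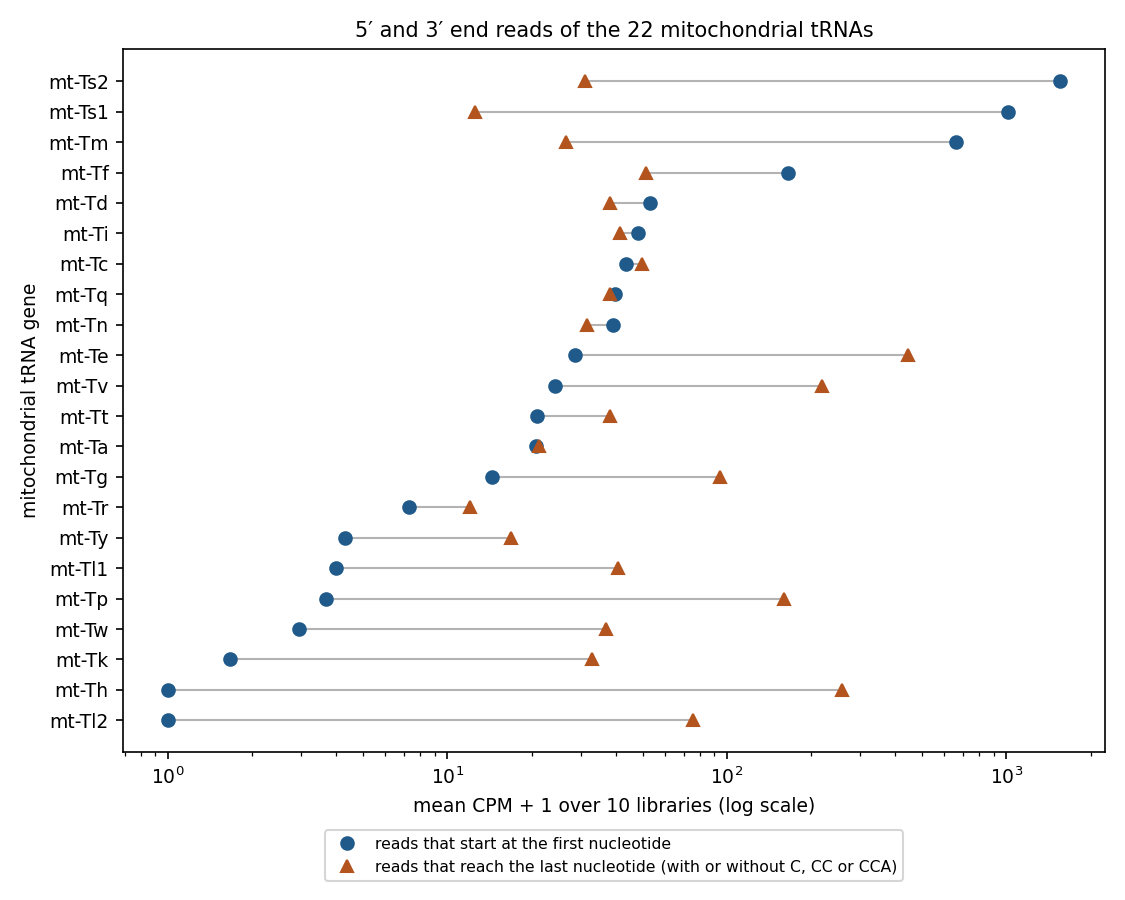
Reads that begin at the first base (5′ end) and reads that reach the last base with or without added C, CC or CCA (3′ end) for each of the 22 mitochondrial tRNAs, as mean CPM + 1 on a log axis over the 10 libraries with more distinct reads, circles for 5′ and triangles for 3′. mt-Ts2, mt-Ts1 and mt-Tm have far more 5′ than 3′ reads, and mt-Te, mt-Th, mt-Tv and mt-Tp far more 3′ reads.

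Most 3′-end reads carried the added CCA. Of 388108 reads that reached the last base of a tRNA gene, 239450 continued with CCA, 87655 with CC, 25858 with C and 35145 with none of these. A read that stopped there at the end of sequencing may lack bases that its RNA had. Such reads were not set apart, here or by gene. Per library CCA took 48.7% to 72.9% of them (median 61.7%), and in the 10 libraries 48.7% to 67.1%. By gene, with CPM pooled over the 16 libraries, the share ran from 20.1% (mt-Tg, a glycine tRNA) to 93.5% (mt-Tl2), and 15 of 22 tRNAs were above 50%. Single libraries can weigh heavily in such a pooled share. For mt-Tg, knockout replicate 1 had 1244 CPM of 3′-end reads, and every other library had at most 188. Whether a C that follows a gene is encoded in the genome was not checked. The 3 CCA-ended reads shown here are each the most abundant of its gene in the 10 libraries, for the 3 genes where that read was highest. Other CCA-ended reads of these genes were not ranked against them. They were chosen after their values were seen, and have the CCA in capitals.
mt-Th, 31 to 67: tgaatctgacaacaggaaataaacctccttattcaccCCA
mt-Te, 32 to 69: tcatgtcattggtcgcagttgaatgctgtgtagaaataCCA
mt-Tp, 36 to 67: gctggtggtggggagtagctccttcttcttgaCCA
The mt-Te read averaged 69.98 CPM in the 10 libraries (10.8 to 309) and had 3 or more reads in 13 of 16. The mt-Th read, at 40 nt too long to be seen whole in replicate 1, stood at 34.8 to 142 CPM in the 8 replicate 2 libraries. The mt-Tp read averaged 29.4 CPM (11.2 to 48.1) and had 3 or more reads in 14 of 16. The gene levels given above leave out reads with added bases, since those bases do not match the gene. With them the mean level over 16 libraries went from 186 to 617 CPM for mt-Te, from 113 to 478 for mt-Tv, from 84.5 to 228 for mt-Th and from 310 to 428 for mt-Tp. Reads at tRNA 3′ ends summed to 5901 and 3166 CPM in knockout, 1345 and 1037 in wild type and 4.09 and 1373 with hsDicer. Both knockout libraries lay above both wild type and both hsDicer libraries (each exact permutation p = 0.333, adjusted 0.778), and the 5 other comparisons overlapped.

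On both rRNAs coverage was highest over the first bases. In the 10 libraries mt-Rnr2 had a mean of 1142 CPM over position 1 (582 to 2097), and the highest peaks beyond position 60 reached 227 at position 1427 (115 to 390) and 217 at position 1272 (43.2 to 588). mt-Rnr1 had 413 CPM over position 1 (103 to 607), 217 at position 545 (35.7 to 607) and 170 at position 688 (42.3 to 284). Between them, 83.6% to 98.9% of mt-Rnr2 positions and 85.7% to 100% of mt-Rnr1 positions had reads in each of the 10 libraries, against 35.8% to 65.8% and 29.9% to 60.2% in the libraries of few distinct reads. The mt-Rnr2 fragments from position 1 ended most often at 24 (28.5% of them), followed by 21 (11.7%) and 20 (11.7%). The 24 nt form, at chrM:1094-1117, had reads in all 16 libraries with a mean of 231 CPM. It stood at 102 and 143 CPM in wild type, 0.7 and 230 in knockout, and 0.3 and 310 with hsDicer. Replicate 1 of knockout and of hsDicer had only 7 and 4 of these reads. There 103 of 114 and 119 of 143 distinct sequences under 10 reads had at least 100 times as many in another replicate 1 library. The fragment from 453 to 473 behaved in another way, at 1327 CPM in knockout replicate 1, 251 in D1320A/D1709A replicate 1 and a mean of 0.232 CPM in the 10 libraries. The top reads of mt-Rnr1 (576 to 616), mt-Co1 (966 to 987), mt-Tp (19 to 54) and mt-Co2 (115 to 141) reached 1016, 463, 606 and 481 CPM in a single library each, and averaged 1.76, 0.00781, 0.407 and 0.810 CPM over the 10 libraries.

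**Figure D4:**
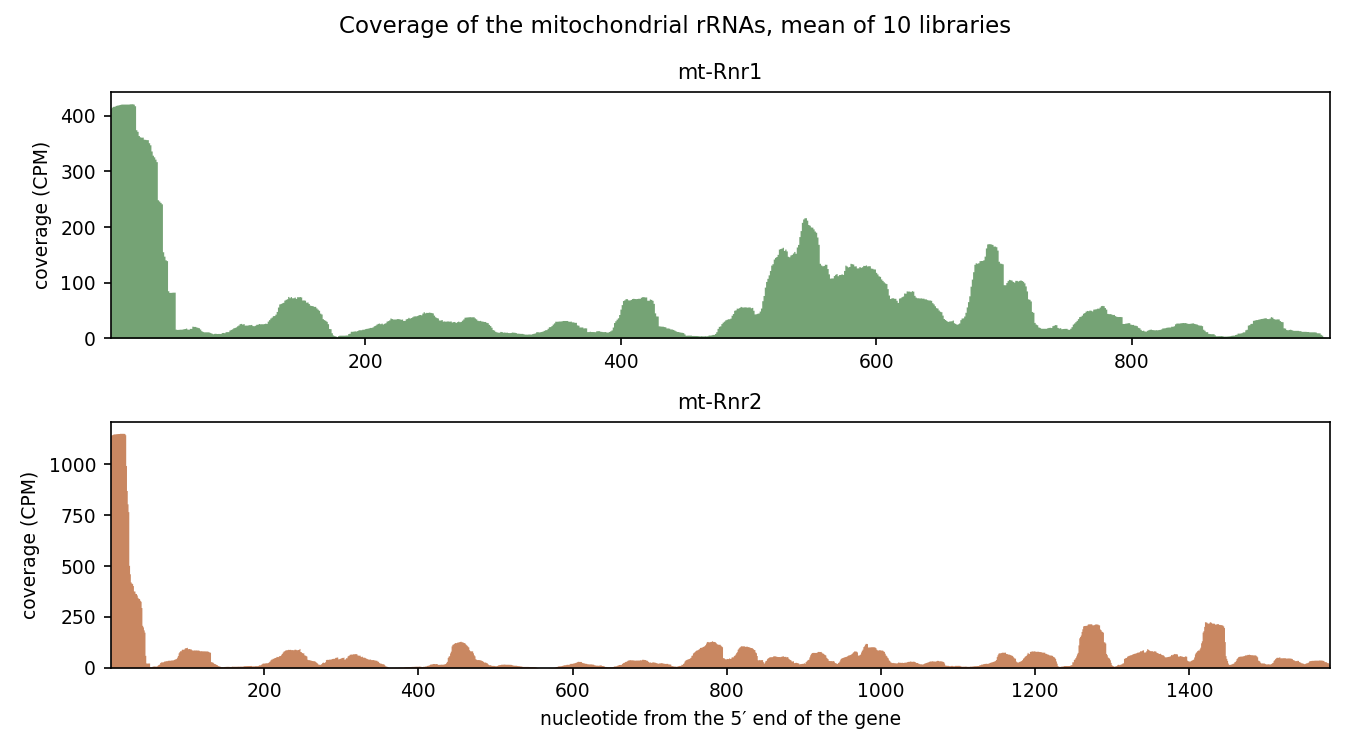
Mean coverage (CPM) along mt-Rnr1 and mt-Rnr2, by nucleotide from the 5′ end of the gene, over the 10 libraries with more distinct reads. Coverage peaks over the first bases, with 413 CPM for mt-Rnr1 and 1142 for mt-Rnr2 at position 1.

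Lengths differed between the classes. Reads over 36 nt, whose inserts were not all seen whole, made up a median 62.9% of tRNA reads in the 10 libraries (27.1% to 76.9%), 37.9% of rRNA reads (19.5% to 49.0%) and 32.1% of mRNA reads (19.7% to 41.3%). Of the tRNA reads up to 36 nt, 21 nt made up a median 46.5% (13.5% to 59.4%), which is 18.2% of tRNA reads of all lengths (3.28% to 40.2%). For rRNA reads up to 36 nt the leading length by median was 24 nt, at 13.2% (8.55% to 22.9%), and 21 nt had 8.22% (1.78% to 16.4%). In replicate 2 of D1320A/D1709A and of Y971A/Y972A the leading length was instead 20 nt, at 19.4% and 21.3%. In D1320A replicate 2 it was 21 nt, at 16.4%. mRNA reads were spread more evenly, and their leading length by median, 27 nt, was at 7.14% (3.20% to 9.82%). The mt-Ts1 fragment made up 28.6% to 94.8% of all mitochondrial reads of 21 nt in the 10 libraries (median 75.7%), and as little as 0.0661% in the 6 others (D1320A/D1709A).

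**Figure D5:**
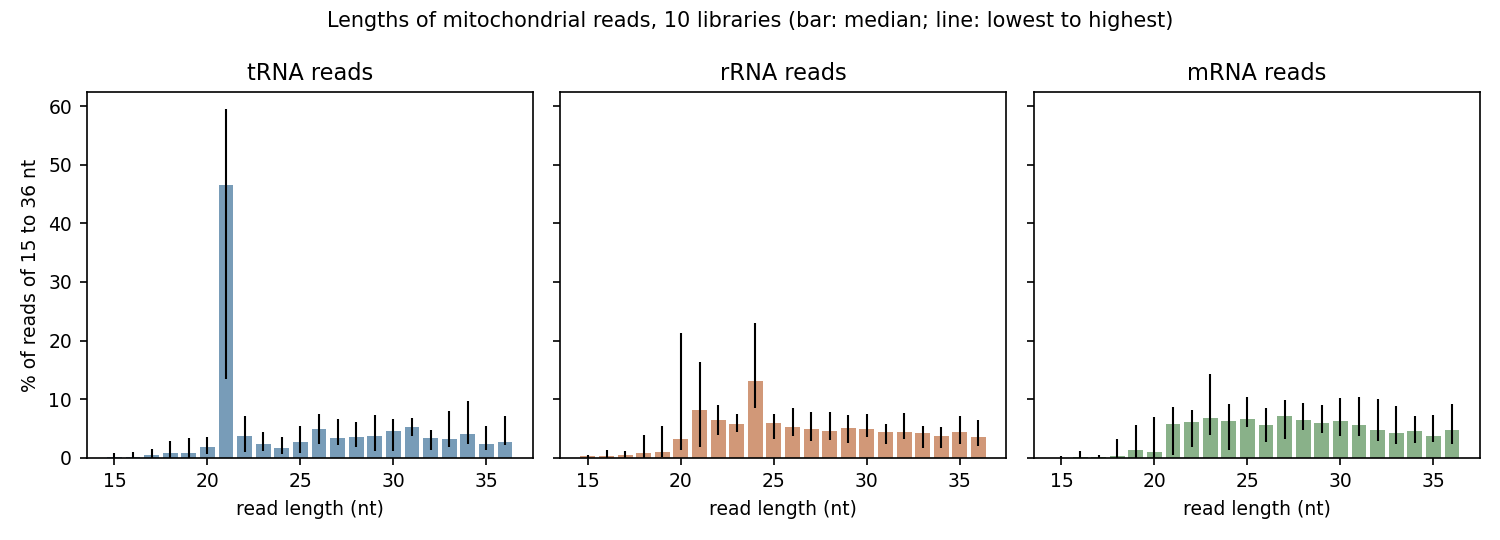
Length distribution of tRNA, rRNA and mRNA fragments of 15 to 36 nt (percent of reads of that class), with bars for the median over the 10 libraries with more distinct reads and lines from lowest to highest. By median, tRNA reads peak at 21 nt (46.5%), rRNA reads at 24 nt (13.2%), and mRNA reads spread over many lengths.

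No mitochondrial gene passed the test in any comparison. edgeR's quasi-likelihood test over 1629 genes with 20 or more reads, Benjamini-Hochberg adjusted at 0.05, called 0 of 37 in each of the 7 comparisons, and 0 of 37 had an unadjusted p under 0.05. DESeq2 called 0 as well, with 1 gene at an unadjusted p under 0.05 in knockout against wild type. Of all 1629 genes 0.491% were called in knockout against wild type, 0.184% in hsDicer against knockout, 0.184% for D1320A, 0.614% for D1320A/D1709A, and 0% for D1709A, K70A and Y971A/Y972A against hsDicer. The common biological coefficient of variation was 1.80, which sets how large a change 2 libraries a group can show.

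In knockout against wild type 31 of the 37 fitted log2 fold changes were above 0, with a median of 0.78, and the median over all tested genes was 0. The median was 0.62 for the 14 tRNAs transcribed from the heavy strand (9 above 0), 1.40 for the 8 light-strand tRNAs (7 above 0), 2.36 for the rRNAs (2 of 2) and 0.74 for the 13 mRNAs (13 of 13). These directions depend on the scale: with hairpin reads left out of the library size the median of the 37 was 0.11 (22 above 0) and that of the heavy-strand tRNAs -0.04, and scaled to small nuclear and nucleolar RNA reads the 37 had -0.46 (14 above 0) and the mRNAs -0.47. The rRNA median stayed above 0 under each of the 4 other scales, between 1.66 and 2.11. mt-Rnr2 had a log2 fold change of 2.30 (SE 1.21, edgeR adjusted p = 0.953) and mt-Rnr1 one of 2.41 (SE 1.57). For mt-Tm it was 2.47 (SE 2.20), for mt-Ts2 1.58 (SE 1.42) and for mt-Ts1 0.67. Both knockout libraries exceeded both wild type libraries for 6 of 37 genes (16.2%), against 8.29% of all genes: mt-Rnr1, mt-Rnr2, mt-Tm, mt-Ts2, the glutamine tRNA mt-Tq and the complex I mRNA mt-Nd5. mt-Tq stood at 989 and 117 CPM in knockout and 0 and 28.2 in wild type, and mt-Nd5 at 357 and 98.1 against 0.1 and 55.9. No gene was lower in both (8.78% of all genes were). With the 6 libraries of few distinct reads left out, 1 library stands on each side and the median was 0.91.

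In hsDicer against knockout the median was -0.49 with 9 of 37 above 0, and the median over all tested genes was 0.31. The sign rests on single libraries: with hsDicer replicate 1 left out the median was 0.36 and with hsDicer replicate 2 left out -8.53, and it was 8.19 when knockout replicate 2 was dropped. 4 of 37 genes (10.8%) were lower in both hsDicer libraries (6.2% of all genes), namely mt-Nd5, mt-Rnr1, mt-Tm and mt-Tq, which are 4 of the 6 genes named for the knockout, with the same knockout libraries in both comparisons. None was higher in both (16.6% of all genes). For mt-Rnr1 the hsDicer replicates were at 544 and 999 CPM, and the lower knockout replicate was at 1019.

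Against hsDicer the medians were 1.17 for D1320A (30 of 37 above 0, and 0.42 over all tested genes), 1.05 for D1709A (28 above 0) and 0.94 for D1320A/D1709A (29 above 0). They were -0.28 for K70A (14 above 0) and 0.35 for Y971A/Y972A (20 above 0), and over all tested genes it was 0 in these last 4. Without the 6 libraries of few distinct reads, among them hsDicer replicate 1, the medians were 0.38 for D1320A, 0.18 for D1709A, 0.85 for D1320A/D1709A, -0.21 for K70A and 0.60 for Y971A/Y972A. For K70A the median was 0.56 when scaled to small nuclear and nucleolar RNA reads. Leaving out 1 library turned it to 0.48 (without K70A replicate 1), turned Y971A/Y972A to -0.03 (without hsDicer replicate 1) or -7.78 (without its own replicate 2), and turned D1320A/D1709A to -1.03 (without its replicate 2). With the replicate block the medians were 5.70 for D1320A and 4.71 for D1709A, with 11 and 10 of 37 genes at an unadjusted p under 0.05 in edgeR and 0 called. D1320A and D1709A are the only groups whose replicate 1 library was not one of few distinct reads, whereas hsDicer replicate 1 was. The part of this in the block medians was not tested. Both libraries lay above both hsDicer libraries for 17 genes with D1320A (45.9%; 16.9% of all genes), 9 with D1709A (24.3%; 12.7%) and 10 with D1320A/D1709A (27.0%; 11.8%). In hsDicer replicate 1, 15 of the 37 genes were at 0 and 18 had fewer than 3 reads, and the part of this in these counts was not tested. For K70A and Y971A/Y972A 3 genes were higher in both (8.11% each; 4.91% and 5.16% of all genes). mt-Rnr1 was higher than both hsDicer libraries in both libraries of all 5 mutants, which share those controls, and its lowest mutant level (1009 CPM) was close to hsDicer replicate 2 (999 CPM). Lower in both were mt-Tc with D1320A, mt-Tc and mt-Ts1 with D1709A, mt-Co2, mt-Tc and mt-Ts1 with K70A, and mt-Tc and mt-Ts1 with Y971A/Y972A. These were 2.70%, 5.41%, 8.11% and 5.41% of the 37 genes, where the backgrounds were 13%, 14.5%, 9.02% and 4.3% of all genes. With D1320A/D1709A 0 of 37 were lower in both (14.1% of all genes). The cysteine tRNA mt-Tc stood at 724 and 135 CPM with hsDicer.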

How the data were processed

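The authors deposited untrimmed counts, a table of distinct reads and how often each was sequenced for each library. The 3′ adapter is given per the labels' protocols, and no source used here names an aligner or genome build. The adapter was removed at a match of 12 bases, or of at least 5 at the read's end. Inserts of 15 nt or more were matched without mismatch to GENCODE M21 transcripts, and CPM is counts per 1000000 such inserts. No genome was used. Reads that fit several genes were split equally.

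Python 3.11.15 with numpy 2.4.6, pandas 2.3.3 and scipy 1.17.1, and R 4.3.3 with edgeR 4.0.16 and DESeq2 1.42.0 were used. One edgeR quasi-likelihood fit held all 16 libraries, with inserts as library size, and was tested on simulated data. Standard errors are the log2 fold change over the root of F. Library shares had exact permutation tests.

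The members and lists were chosen with earlier results of these data known. The text names the 8 genes of highest mean CPM, any gene called, the 10 most abundant distinct reads and the top read of each named gene. Genes of groups that do not overlap, and further tRNAs and CCA-ended reads, were named after their values were seen. Alternatives were other scalings, length minimums, filters, CCA tails, a replicate block and libraries left out.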

Additional observations from a re-analysis of the deposited data

How the results depend on the processing

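No mitochondrial gene was called in any of the 7 comparisons under any alternative run, including the fit with the replicate block (0 genes called in each). The lowest adjusted p over these was 0.108 (knockout against wild type), and the most genes with an unadjusted p under 0.05 were 9 in that comparison and 11 for D1320A. The labels give only a number, but it goes with the read length (41 nt in replicate 1, 51 nt in replicate 2), and deviations of same-numbered libraries correlated at 0.066 to 0.447 with 2 pairs a comparison. In this balanced design the replicate block leaves each difference in share as it was (1.10 points for knockout against wild type) by construction. That difference kept its sign under every alternative tried. Other differences in share, in percentage points, turned sign. With small nuclear and nucleolar RNA reads as denominator they were 1.12 (hsDicer against knockout), -2.31 (D1320A), -1.70 (D1320A/D1709A) and -0.930 (Y971A/Y972A), as reads per 100. Without hairpin reads they were -0.148 (D1709A) and -0.177 (Y971A/Y972A). For inserts of 15 to 36 nt they were -0.188 (D1709A) and -0.00121 (Y971A/Y972A). With CCA-tailed reads K70A had 0.00595, and in replicate 2 alone D1709A had -0.237. Leaving out 1 library gave -0.243 to 0.602 for D1709A, where D1709A replicate 1 decides the sign, -0.192 to 0.0160 for K70A and -0.0293 to 0.0759 for Y971A/Y972A. The share of tRNA reads at the gene start was 23.3% over distinct reads and, over reads of all lengths, 52.2% with tails. At the gene end it was 40.0% with tails, over reads up to 36 nt only. The rRNA start share was 5.84% over distinct reads. Tailed reads all lie at the gene end, so that counting them lowers the start share by construction. Causes of the other changes were not tested. Leaving out 1 library moved the median log2 fold change of the 37 genes in knockout against wild type from -8.28 (without knockout replicate 2) to 10.04 (without wild type replicate 2). In both cases the library left behind in that group was one of few distinct reads, and the part of this was not tested. The median was 0.13 without wild type replicate 1 and 1.73 without knockout replicate 1. Without hsDicer replicate 2 the mutants' medians were 8.41 to 9.48, and for K70A without its own replicate 2 it was -7.93.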

Other observations

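Reads from the opposite strand of mitochondrial genes numbered 137924 over the 16 libraries, or 2.87 to 11.5 per 100 sense reads (median 4.31), and came from 36 of the 37 genes. The largest counts lay opposite mt-Nd5, a complex I mRNA (29426 reads, 16 libraries), mt-Rnr2 (15555), the isoleucine tRNA mt-Ti (14658) and mt-Co1 (13004). hsDicer replicate 1 had 17468 such reads and D1709A replicate 2 had 2400. Per 100 sense reads wild type had 7.89 and 3.66 and knockout 4.82 and 3.78, which overlapped.

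Reads that span the border of abutting genes, with at least 5 nt on each side, were few. The border of mt-Rnr2 and the leucine tRNA mt-Tl1 had 731 reads in 9 libraries, that of mt-Tv and mt-Rnr2 had 229 in 4, and that of mt-Nd4l and mt-Nd4 had 42 in 1. The other 14 borders had 0. Where genes overlap, a read also had to span the whole overlap. That of mt-Atp8 and mt-Atp6 is too long for the reads sequenced, so the 0 there was fixed in advance.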
